A study of Mus musculus with 4 samples.

Results

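The cells described here were Il6+Ackr4- cells of the Grem1 crypt gate, 761 of the 16,891 10X Genomics cells of the series. The tissue was small intestine, taken from C57Bl/6 males that were wild-type and 8 weeks old. Each had at least 1 UMI (unique molecular identifier, 1 counted RNA molecule) of Grem1 and of Il6, none of Ackr4 or Sox6, UMIs of at least 2 of Prss23, Col8a1, Stc2 and Cilp, and UMIs of fewer than 3 genes of each panel that marks mesothelial-like cells (Inmt, Penk, Vit, Scara5) and Fibin fibroblasts (Chodl, Dner, Thbs2, Ptn). The sort kept PDPN+ cells, PDPN being a broad surface marker of intestinal fibroblasts, and removed cells with CD45, EpCAM or CD31, so all groups were unperturbed stroma that had been freed from tissue by enzyme digestion. Library 1 held 76 of the Il6+Ackr4- cells among 2547 cells and library 2 held 685 among 14,344. They were compared, library by library, with 1087 Il6-Ackr4- crypt cells (257 and 830), with 1771 Il6+Ackr4+ crypt cells (304 and 1467) that met the same panels, and with 5640 villus cells (809 and 4831), which had Lpl or Fgfr2 and lacked Sox6 and Grem1. A further group of 1254 Il6-Ackr4+ crypt cells (275 and 979) entered the fit and some figures but was not itself compared. How many mice gave each library is not given in the sources used here. The fit removed the shift that all groups share between libraries. The p-values therefore measure only how far differences between groups varied across these 2 libraries, and not a spread between mice.

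Fibroblasts around the crypts feed the epithelial stem cells above them, and GREM1, a secreted antagonist of bone morphogenetic proteins (BMPs), is one of their best known products. Fibroblasts of the villus carry another programme, with BMP ligands and enzymes of retinoid metabolism. IL-6 is a cytokine whose transcription rises quickly when inflammatory receptors or cell stress activate NF-kB, C/EBP and AP-1 factors, and fibroblasts are a major source of it in inflamed tissue.

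The choice of the cells used 18 genes, so the levels of those genes are a description. Il6, at chr5:30013114-30019981 of GRCm38, stood at 6.74 and 7.17 UMIs per 10,000 in libraries 1 and 2, pooled over the Il6+Ackr4- cells. The Il6+Ackr4+ cells had 7.22 and 9.20, and the villus cells, most of which had no Il6, 1.04 and 1.90. Many members sat close to a limit of the rule. A single Il6 UMI was the entry of 232 of the 761 cells (30.5%), and 116 (15.2%) had 10 or more. A single Grem1 UMI was that of 201 cells, and 253 had just 2 of the 4 crypt panel genes. Outside the rule by 1 Ackr4 UMI lay 449 cells, and 618 cells met everything but Grem1. Grem1 itself stood at 9.41 and 7.37 UMIs per 10,000, against 18.6 and 15.2 in the Il6+Ackr4+ cells. Cilp, a matrix protein of cartilage and fibroblasts and a gene of the rule's panel, stood at 6.14 and 2.97 UMIs per 10,000, against 9.33 and 6.16 in the Il6+Ackr4+ cells.

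Il6 was detected in 22.8% of the Ackr4- crypt cells of library 1 (exact Clopper-Pearson 95% interval 18.4 to 27.7%, counting error only) and in 45.2% of those of library 2 (42.7 to 47.8%). Among the Ackr4+ crypt cells the shares were 52.5% and 59.98%, and among the villus cells 18.7% and 28.6%. With every cell thinned to 2000 UMIs the shares were 14.7% and 29.2%, 32.9% and 41.7%, and 10.96% and 17.4%, so the order of the 3 groups was the same in both libraries at equal depth. Immune and glial cells, which serve as a measure of free RNA, were too few in library 1 (1 and 4 cells) for a share. In library 2, Il6 had a UMI in 5.13% of 39 immune cells (median 4234 UMIs) and 4.84% of 62 glial cells (median 4934.5 UMIs). Median depth was 7136 and 6913 UMIs in the Il6+Ackr4- cells, 8208 and 6778.5 in the Il6-Ackr4- cells, 10,445 and 8113 in the Il6+Ackr4+ cells, and 7929 and 6044 in the villus cells.

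The data went partly against the name crypt fibroblast. Lpl or Fgfr2, the genes that define the villus gate, had a UMI in 566 of the 761 Il6+Ackr4- cells (74.4%). By library the share was 67.1% and 75.2%, against 48.4% and 52.3% of the Il6+Ackr4+ cells and 81.7% and 82.8% of the Il6-Ackr4- cells, so it was not particular to them. In immune and glial cells of library 2, Lpl had a UMI in 5.13% and 4.84% and Fgfr2 in 2.56% and 6.45%. A list of 40 crypt fibroblast genes outside the rule summed to 226 and 222 UMIs per 10,000 in these cells, 170.2 and 190.3 in the Il6-Ackr4- cells, 318 and 352 in the Il6+Ackr4+ cells, and 126 and 138 in the villus cells. For a list of 36 villus fibroblast genes the sums were 207 and 258, 306 and 329, 119 and 138, and 297 and 330. The Il6-Ackr4- cells, though gated by Grem1 and the crypt panel, thus stood beside the villus cells on the villus list. The Il6+Ackr4- cells lay between the Il6+Ackr4+ and the villus cells on both lists in each library. They also varied widely from cell to cell: the villus sum ran from 91.8 to 253 UMIs per 10,000 between the 25th and 75th percentiles in library 1 and from 118 to 319.8 in library 2. They are therefore called here by their rule, Il6+Ackr4- cells. Other cell types were scarce: 37 of the 761 cells (4.86%) had a UMI of Ptprc, Epcam, Pecam1, Sox10 or Cnn1, 6 of 6 epithelial and 7 of 7 glial markers were at 0 in the 76 cells of library 1, while 4 of 6 and 6 of 7 had UMIs in library 2 (sums of 0.0319 and 0.0458 UMIs per 10,000), and the immune list of 9 genes summed to 0.466 and 0.229 UMIs per 10,000.

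**Figure D1:**
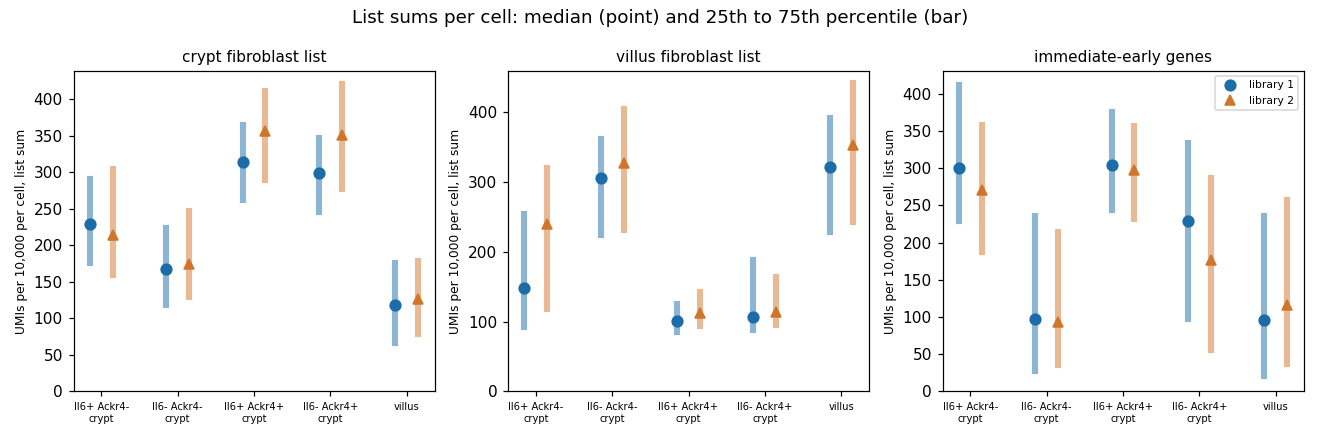
Sum per cell of the crypt fibroblast list, the villus fibroblast list and the immediate-early list in UMIs per 10,000 (vertical axes), for 5 cell groups (horizontal axes) in library 1 (circles) and library 2 (triangles), with the median as a point and the 25th to 75th percentile as a bar. On the crypt and villus lists the Il6+Ackr4- cells lie between the Ackr4+ crypt cells and the villus cells, and on the immediate-early list they lie with the Il6+Ackr4+ cells.

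The first comparison asked what goes with Il6 among crypt cells with no Ackr4 UMI. An Ackr4 count of 0 depends on depth: Ackr4 was at 0 in 20% and 31.8% of Il6+ crypt cells, but with cells thinned to 2000 UMIs it was detected in 45.4% and 38.3% of them. Against the Il6-Ackr4- cells, 247 genes were higher and 144 lower in the Il6+Ackr4- cells (limma on log2 of pooled UMIs per 10,000 + 0.1, library as block, Benjamini-Hochberg adjusted p under 0.05), 27.9% of the 1399 genes tested (17.7% higher, 10.3% lower). With the analysed genes alone as the total of each library, 203 were higher and 268 lower. The split was 125 higher and 17 lower without the library block, 190 and 56 with sample weights, and 110 and 68 without cells with Lpl or Fgfr2. The cells were split by detection, so what goes with Il6 and what goes with the chance of detecting it cannot be told apart. Higher were 27 of 29 immediate-early, 17 of 20 NF-kB, 6 of 7 metal-binding and 6 of 11 hyaluronan genes tested, and 23 of 36 villus list genes were lower. All lists were chosen with earlier results of these data known, and Has1, Mt2 and Gfpt2 were named as markers of these cells beforehand. The list counts are therefore a description and no independent evidence. The immediate-early genes, transcription factors and regulators induced within minutes of a stimulus, had none lower and a median log2 difference of 0.93 beside -0.02 over all genes tested. Cells with much of the immediate-early programme were also more frequent: 77.6% and 71.4% of the Il6+Ackr4- cells had a list sum of at least 200 UMIs per 10,000, against 30.7% and 27.1% of the Il6-Ackr4- cells.

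Mt2, a metallothionein that binds zinc and copper, had the largest difference among the higher genes. It stood at 9.57 and 3.43 UMIs per 10,000 in the Il6+Ackr4- cells and 1.98 and 0.941 in the Il6-Ackr4- cells, so each library was higher than both libraries of the other group, and library 1 was the higher in both groups. The log2 difference was 1.99 ± 0.18 (SE, limma adjusted p = 0.00011). Mt1, its neighbour, stood at 20.5 and 9.13 against 5.55 and 3.17 (log2 difference 1.68 ± 0.11 SE, limma adjusted p = 4.0e-05). In the metal-binding list 6 of 7 genes tested were higher, among them Hmox1, the haem-degrading oxygenase (1.00), and the metalloreductase Steap4 (0.89), while the ferritin light chain Ftl1 did not pass (0.22).

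Hyaluronan, a long sugar polymer of the matrix, is made by HAS enzymes from UDP-sugars. Has1, at chr17:17843323-17855205, stood at 6.24 and 5.36 UMIs per 10,000 in the Il6+Ackr4- cells and 2.78 and 1.25 in the Il6-Ackr4- cells, with no overlap between the groups. Its log2 difference was 1.58 ± 0.17 (SE, limma adjusted p = 0.00017). Without cells with Lpl or Fgfr2 the groups overlapped for Has1, at 9.32 and 8.35 UMIs per 10,000 against 8.60 and 2.05. Gfpt2, which starts the hexosamine pathway that supplies one of these sugars, stood at 2.50 and 1.54 against 0.806 and 0.663 (log2 difference 1.31 ± 0.14 SE, limma adjusted p = 0.00016). Ugdh, the enzyme that makes UDP-glucuronate, was higher by 0.87, Uap1, which makes UDP-N-acetylglucosamine, by 0.36, and Tnfaip6, a hyaluronan-binding secreted protein, by 1.29. In all, 6 of the 11 genes of this list tested were higher and none lower (4 and 1 with the analysed genes as the total), and Has2, another hyaluronan synthase, differed by -0.060 and did not pass.

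NF-kB targets and feedback regulators were higher in 17 of 20 genes tested, with none lower and a median log2 difference of 0.80. Nfkbia, the inhibitor IkB-alpha, stood at 8.57 and 8.00 UMIs per 10,000 against 3.35 and 3.81 (log2 difference 1.19 ± 0.13 SE, limma adjusted p = 0.00017). Nfkbiz, a nuclear IkB protein needed for Il6 transcription in several cell types, stood at 5.93 and 3.33 against 1.51 and 1.26 (log2 difference 1.62 ± 0.18 SE, limma adjusted p = 0.00022). The libraries of the 2 groups did not overlap for either gene. Tnfaip3, which encodes the deubiquitinase A20, was higher by 1.37, Zc3h12a, an RNase that degrades Il6 mRNA, by 1.16, and Ptgs2, the inducible cyclooxygenase, by 1.24. Relb, Vcam1 and Sod2 were the 3 that did not pass (0.17, -0.14 and 0.31).

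Of the chemokine list, 4 of 12 genes tested were higher and none lower. The 4 include Ccl7, which entered the test through the Il6+Ackr4- cells only. Cxcl1, which draws neutrophils, stood at 2.997 and 2.99 UMIs per 10,000 against 0.777 and 1.12 (log2 difference 1.58 ± 0.15 SE, limma adjusted p = 0.00016). Ccl2, which draws monocytes, was less even between libraries, at 2.86 and 5.20 against 0.466 and 2.05 (log2 difference 1.84 ± 0.38 SE, limma adjusted p = 0.0051). Ccl7 was higher by 1.08 and Cxcl10 by 1.22. Socs3 and Socs1, feedback inhibitors induced by cytokines of the IL-6 family, were higher by 1.07 and 0.74. On the list of the IL-6 family and its receptors, 2 of 5 genes tested were higher, none was lower and 3 did not pass. Il6ra and Il6st, the receptor genes, were not analysed here.

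The upstream bases of Il6, Cxcl1 and Nfkbia are shown because Il6 defines the cells, Cxcl1 and Nfkbia were higher in them, and the 3 promoters hold a form of the NF-kB motif, GGG followed by any 2 bases and TTTCC. They are the 250 bases before the annotated start from the RefSeq promoter table on GRCm38.p6, written 5′ to 3′ on the gene's strand, with matches on either strand in capitals.
Il6 (chr5:30012864-30013113, plus strand): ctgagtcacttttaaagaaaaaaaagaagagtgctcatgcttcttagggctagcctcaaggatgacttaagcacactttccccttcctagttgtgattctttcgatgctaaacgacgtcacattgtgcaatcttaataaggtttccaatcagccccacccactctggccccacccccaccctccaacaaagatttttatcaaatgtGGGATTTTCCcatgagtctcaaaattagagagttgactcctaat
Cxcl1 (chr5:90890995-90891244, plus strand): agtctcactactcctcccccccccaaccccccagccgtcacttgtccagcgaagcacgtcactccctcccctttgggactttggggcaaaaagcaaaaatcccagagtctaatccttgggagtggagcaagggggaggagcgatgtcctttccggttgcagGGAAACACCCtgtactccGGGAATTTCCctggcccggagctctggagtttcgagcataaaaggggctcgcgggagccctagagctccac
Nfkbia (chr12:55492648-55492897, minus strand): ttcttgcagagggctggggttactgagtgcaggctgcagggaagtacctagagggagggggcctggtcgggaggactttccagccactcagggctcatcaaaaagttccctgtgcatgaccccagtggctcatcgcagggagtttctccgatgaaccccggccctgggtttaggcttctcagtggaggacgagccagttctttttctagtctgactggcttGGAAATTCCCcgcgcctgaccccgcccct
The match begins 44 bases before the start of Il6, 89 and 71 bases before that of Cxcl1, these 2 on opposite strands, and 29 bases before that of Nfkbia. Of all 32,851 promoters of this table, 464 (1.41%) held such a match in the same 250 bases. Of the NF-kB list, 4 of 20 entries held a match. These came from 3 of the 16 genes with an entry, Nfkb2, Nfkbia and Tnfaip3. Another entry of Tnfaip3 held no match, and neither did Zc3h12a, which was also higher in the Il6+Ackr4- cells. None of the 24 immediate-early genes with an entry held one. A match describes the letters in this window only.

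Among the immediate-early genes, Zfp36, an mRNA-decay factor, stood at 17.6 and 13.8 UMIs per 10,000 against 5.65 and 5.51 (log2 difference 1.47 ± 0.14 SE, limma adjusted p = 0.00016), and Fosb, an AP-1 subunit, at 15.9 and 10.4 against 5.66 and 4.67 (log2 difference 1.31 ± 0.14 SE, limma adjusted p = 0.00016). Egr1 was higher by 1.01, Ier3 by 1.55, Ier5 by 1.41 and Csrnp1 by 1.69. Klf2 and Klf6 did not pass. Heat shock genes followed in 7 of 12 genes tested, with Hspa1a and Hspa1b, the inducible HSP70 genes, higher by 0.69 and 0.90 and the co-chaperone Dnajb1 by 1.13. These genes also respond to tissue digestion, and their part in the result was not tested. Cdkn1a, a cell cycle inhibitor, was higher by 1.65, Adamts4, an aggrecan-cleaving protease, by 1.57, and Matn4, a matrilin, by 1.61. Matn4 and Ccl7 were found in under 5% of the Il6-Ackr4- cells and entered through the Il6+Ackr4- cells only, so their values are a description.

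Of the 144 lower genes, 23 were of the villus list and 2, Tagln and Acta2, were among the 5 subepithelial markers tested. Tagln, a gene of smooth muscle and myofibroblasts, stood at 0.266 and 0.606 UMIs per 10,000 in the Il6+Ackr4- cells against 1.33 and 1.31 in the Il6-Ackr4- cells. Acta2, smooth muscle actin, stood at 0.649 and 1.11 against 1.87 and 2.11. The groups did not overlap, and the log2 differences were -1.48 ± 0.24 (SE, limma adjusted p = 0.0015) for Tagln and -1.13 ± 0.35 (SE, limma adjusted p = 0.035) for Acta2. The smooth muscle list of 6 genes, of which 1 was tested, summed to 0.316 and 0.578 UMIs per 10,000 against 0.763 and 1.09, and its part was not tested. On the villus list none was higher, with Adamdec1, a secreted metalloprotease-like protein, at 34.5 and 63.3 against 81.8 and 94.9 (log2 difference -0.91 ± 0.18 SE, limma adjusted p = 0.0038) and Igfbp3 at 1.05 and 2.33 against 2.76 and 3.06 (log2 difference -0.85 ± 0.19 SE, limma adjusted p = 0.0079). Adamdec1 also had a UMI in 61.5% of the immune and 59.7% of the glial cells of library 2, and the part of free RNA in its levels was not tested. Of the crypt list, 30 of 39 were higher, with Cd81, a tetraspanin, at 1.40 and 1.44 against 0.408 and 0.563 (log2 difference 1.39 ± 0.11 SE, limma adjusted p = 7.0e-05). Both lists were drawn up with results on these cells known and are no independent evidence of direction. Fhl2, Tes, Synpo2, Hoxc9 and Edil3 were also lower, by -1.17, -1.15, -0.91, -0.99 and -0.82 on the log2 scale. Igkc, an immunoglobulin gene of plasma cells, had the largest fall, but 84.0% and 88.2% of its UMIs in the Il6-Ackr4- cells came from 1 cell in each library.

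Far fewer genes passed among cells with a high immediate-early sum. With both groups limited to cells with an immediate-early sum of at least 200 UMIs per 10,000 (59 and 489 Il6+Ackr4- cells, 79 and 225 Il6-Ackr4- cells), 16 genes were higher and 3 lower, 19 in place of 391, and 350 of the 391 kept their direction. The median size of the difference over the 391 genes was 0.32 on the log2 scale, against 0.64 with all cells. Those higher included Mt2 (1.11, limma adjusted p = 0.0036), Gfpt2 (0.87, limma adjusted p = 0.0036), Adamts4 (0.82, limma adjusted p = 0.0021), Mt1 (0.78, limma adjusted p = 0.0036), Nfkbiz (0.70, limma adjusted p = 0.017), Cdkn1a (0.61, limma adjusted p = 0.016) and Cd81 (0.57, limma adjusted p = 0.027). Has1 (0.49, limma adjusted p = 0.24), Cxcl1 (0.65, limma adjusted p = 0.18) and Ccl2 (0.88, limma adjusted p = 0.22) no longer passed. For Has1 the libraries differed in sign, at 7.47 against 7.93 UMIs per 10,000 in library 1 and 6.85 against 3.24 in library 2. The values of Egr1 (-0.017, limma adjusted p = 0.92), Hspa1a (-0.27, limma adjusted p = 0.26), Hspa1b (-0.040, limma adjusted p = 0.9) and Uap1 (-0.030, limma adjusted p = 0.93) changed sign. This limit did not match the groups: the differences were 0.37 (limma adjusted p = 0.0503) for Zfp36 and 0.58 (limma adjusted p = 0.0503) for Csrnp1. Egr1, Zfp36 and Csrnp1 are part of the immediate-early sum, so their smaller differences here are partly set by the choice of cells.

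**Figure D2:**
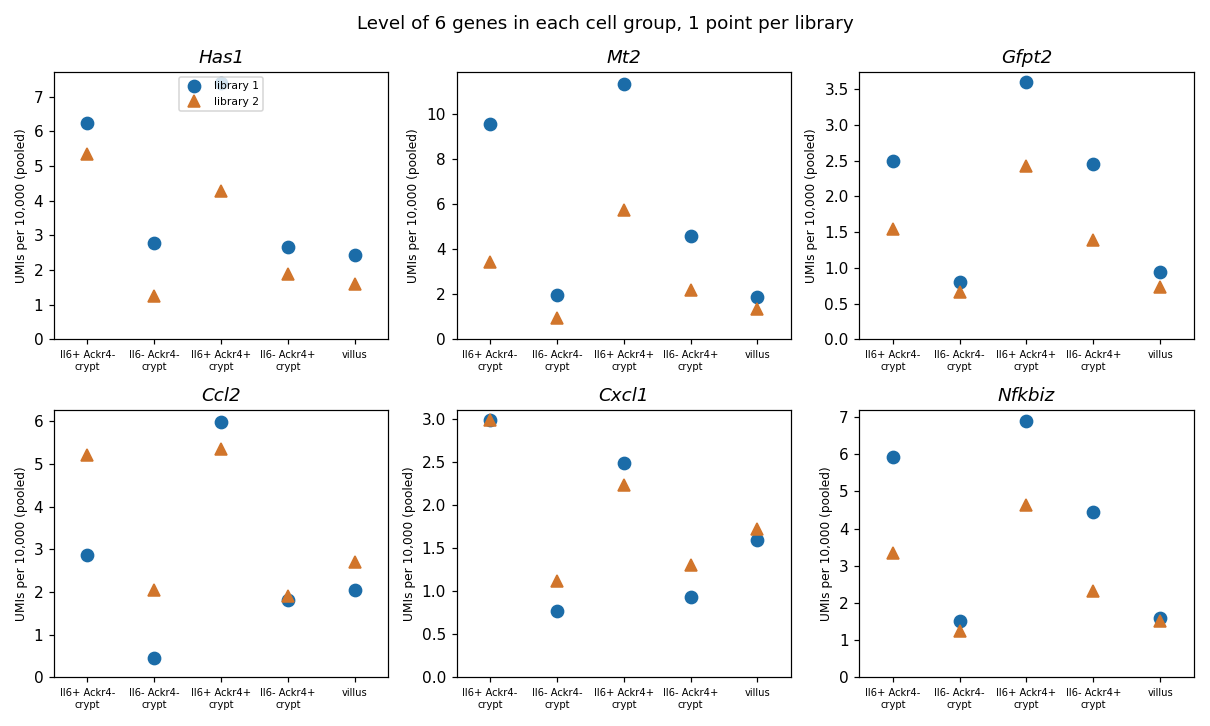
Pooled level in UMIs per 10,000 (vertical axes) of Has1, Mt2, Gfpt2, Ccl2, Cxcl1 and Nfkbiz in 5 cell groups (horizontal axes), 1 point for library 1 (circle) and 1 for library 2 (triangle). In both libraries each gene is higher in the Il6+Ackr4- cells than in the Il6-Ackr4- cells and the villus cells.

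The same question was put to villus cells, to see whether what goes with Il6 is tied to the crypt gate. Villus cells with Il6 (151 and 1381) had Has1 at 6.96 and 3.46 UMIs per 10,000 against 1.14 and 0.744 in those without (658 and 3450), Mt2 at 4.51 and 2.39 against 1.13 and 0.881, and Gfpt2 at 2.15 and 1.29 against 0.595 and 0.484. The log2 differences with Il6, crypt beside villus, were 1.99 and 1.62 for Mt2, 1.58 and 2.29 for Has1, 1.31 and 1.47 for Gfpt2, 1.58 and 1.62 for Cxcl1, 1.62 and 1.47 for Nfkbiz and 1.69 and 1.75 for Csrnp1. Tested as an interaction in limma, none of the 1430 genes passed (0% called), with 130 under an unadjusted p of 0.05. The smallest p was that of Cd81, which differed by 1.39 and 0.082 with Il6 in crypt and in villus cells, an interaction of 1.31 ± 0.18 (SE, adjusted p = 0.068). Next came Jam2, a junctional adhesion molecule, at 0.41 and -0.75 (adjusted p = 0.095), and Emid1 at 0.22 and -1.22 (adjusted p = 0.095). For Has1 the interaction was -0.72 ± 0.27 and for Mt2 0.37 ± 0.30 (adjusted p = 0.47 and 0.75).

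**Figure D3:**
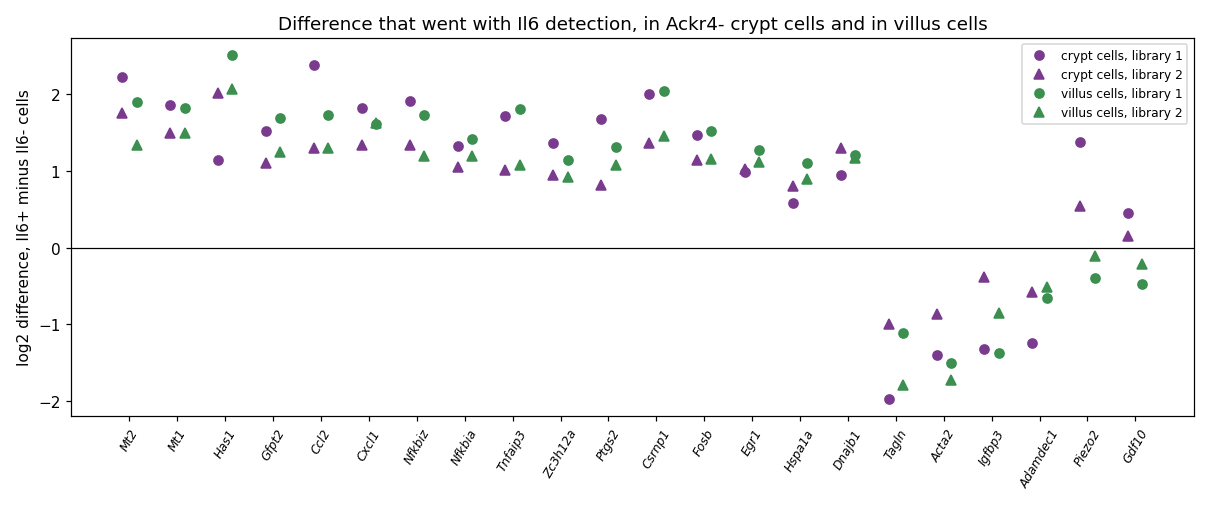
Log2 difference between cells with and without Il6 (vertical axis) for 22 genes (horizontal axis), in Ackr4- crypt cells (purple) and villus cells (green), library 1 as circles and library 2 as triangles. Genes from Mt2 to Dnajb1 lie above 0 and genes from Tagln to Adamdec1 below 0 in both gates and libraries, while Piezo2 and Gdf10 lie above 0 in crypt and below 0 in villus cells.

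The second comparison asked how Il6+Ackr4- cells differ from Il6+ crypt cells with Ackr4, a scavenging receptor for CCL19, CCL21 and CCL25. Against the Il6+Ackr4+ cells, 219 genes were higher and 171 lower, 27.5% of 1419 genes tested by limma (15.4% higher, 12.1% lower). The split was 275 and 119 with the analysed genes as the total, and 152 and 219 on mean natural log values. Of the lists described above, 2 of 29 immediate-early genes were higher and 3 lower, and 1 of 20 NF-kB genes was higher and 1 lower, Tnfaip2 (0.44) and Tnfrsf12a (-0.67). In the hyaluronan list 3 of 10 were higher and 1 lower, among the chemokines 2 of 12 were higher and 1 lower, and 3 of 12 heat shock and 2 of 7 metal-binding genes were lower with none higher. Of the 12 chemokines, 2 entered the test through 1 of the groups only. Has1 stood at 6.24 and 5.36 UMIs per 10,000 against 7.41 and 4.27, overlapping between the groups (log2 difference 0.039 ± 0.17 SE, limma adjusted p = 0.9). The sign of the Has1 difference changed between the libraries and under thinning. Mt2 stood at 9.57 and 3.43 against 11.3 and 5.73 (log2 difference -0.48 ± 0.18 SE, limma adjusted p = 0.071), while Gfpt2 was lower at 2.50 and 1.54 against 3.60 and 2.43 (log2 difference -0.57 ± 0.14 SE, limma adjusted p = 0.011), and Mt1 was lower by 0.81. The sign for Mt2, Gfpt2 and Mt1 turned when crypt cells with an Lpl or Fgfr2 UMI were left out.

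Villus genes were higher and crypt genes lower. Of the 36 villus genes 30 were higher and none lower (median 0.67, beside 0.04 over all genes), and of the 40 crypt genes 36 were lower and none higher (median -0.80), lists that were chosen on these samples and are no independent evidence. Igfbp5, which binds insulin-like growth factors, stood at 24.4 and 18.1 UMIs per 10,000 against 2.10 and 3.94 (log2 difference 2.82 ± 0.26 SE, limma adjusted p = 5.9e-05), and in the villus cells at 17.2 and 17.9. Adamdec1 stood at 34.5 and 63.3 against 8.47 and 15.6 (log2 difference 2.01 ± 0.18 SE, limma adjusted p = 4.8e-05), with 87.0 and 105 in the villus cells. The Il6+Ackr4- libraries lay above both libraries of the Il6+Ackr4+ cells for each gene. Hmcn1, a giant extracellular matrix protein, was higher by 1.80, Col6a5 by 1.90, Timp3, an inhibitor of metalloproteases, by 1.71, and Tnc, the matrix protein tenascin C, by 1.71. Aldh1a3, a retinaldehyde dehydrogenase, was higher by 1.61, Kitl, the ligand of KIT, by 1.52, Igfbp3 by 1.52 and Ddah1 by 1.62.

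On the crypt side, Cldn10, a claudin, stood at 0.0999 and 0.0957 UMIs per 10,000 against 0.574 and 0.454 (log2 difference -1.63 ± 0.17 SE, limma adjusted p = 0.00012). Cd81 stood at 1.40 and 1.44 against 3.87 and 4.29 (log2 difference -1.46 ± 0.11 SE, limma adjusted p = 1.9e-05), and Ogn, the small proteoglycan osteoglycin, at 4.01 and 2.64 against 8.27 and 7.53 (log2 difference -1.25 ± 0.24 SE, limma adjusted p = 0.0031). None of the 3 overlapped between the groups. Ccl7 was lower by 1.23, Piezo2, a mechanically gated channel, by 1.21, Flrt3 by 1.46, Aoc3 by 1.25 and Cpz by 1.25 on the log2 scale. The growth factor Vegfd was lower by 1.12. In the matrix list 21 of 36 genes were lower and 5 higher, with Mgp, the matrix Gla protein, lower by 0.70 and Col14a1 by 0.63. In the complement and acute phase list 3 of 9 were lower and none higher, with C3, the central complement component, lower by 0.59.

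Niche factors split in both directions, 5 of 20 higher and 7 lower, and 2 of the 20 entered the test through 1 of the groups only. The BMP antagonist Chrdl1 was lower by 1.58, and Gdf6, a BMP-like ligand, by 1.46. The ligand Bmp5 was higher by 1.70, the Wnt antagonist Frzb by 1.81, and Hhip, an antagonist of hedgehog ligands, by 1.75. Frzb and Hhip changed sign without cells with Lpl or Fgfr2, to -0.073 (limma adjusted p = 0.95) and -0.027 (limma adjusted p = 0.98). Frzb, Hhip, Ddah1 and Chrdl1 were found in under 5% of the cells of 1 group and entered through the other, so their values are a description. Grem1, part of the rule, was also at a lower level in the Il6+Ackr4- cells, as given above.

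No gene passed once crypt cells with Lpl or Fgfr2, the villus gate genes, were left out. In that setting 25 and 170 Il6+Ackr4- cells and 157 and 700 Il6+Ackr4+ cells remained, and 0 of the 1419 genes passed in limma (180 under an unadjusted p of 0.05). The median size of the difference over the 390 called genes fell from 0.62 to 0.29 on the log2 scale, and 318 of the 390 kept their direction. Adamdec1 then differed by 1.25 (limma adjusted p = 0.12), Igfbp5 by 1.94 (limma adjusted p = 0.17), Cd81 by -0.36 (limma adjusted p = 0.34) and Ogn by -0.39 (limma adjusted p = 0.48). Of the Il6+Ackr4- cells 32.9% and 24.8% remained, and of the Il6+Ackr4+ cells 51.6% and 47.7%, so fewer cells stand behind these values. The Il6+Ackr4+ cells were the deeper ones, and with the UMIs of every cell thinned to 2000, 180 genes passed in place of 390.

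**Figure D4:**
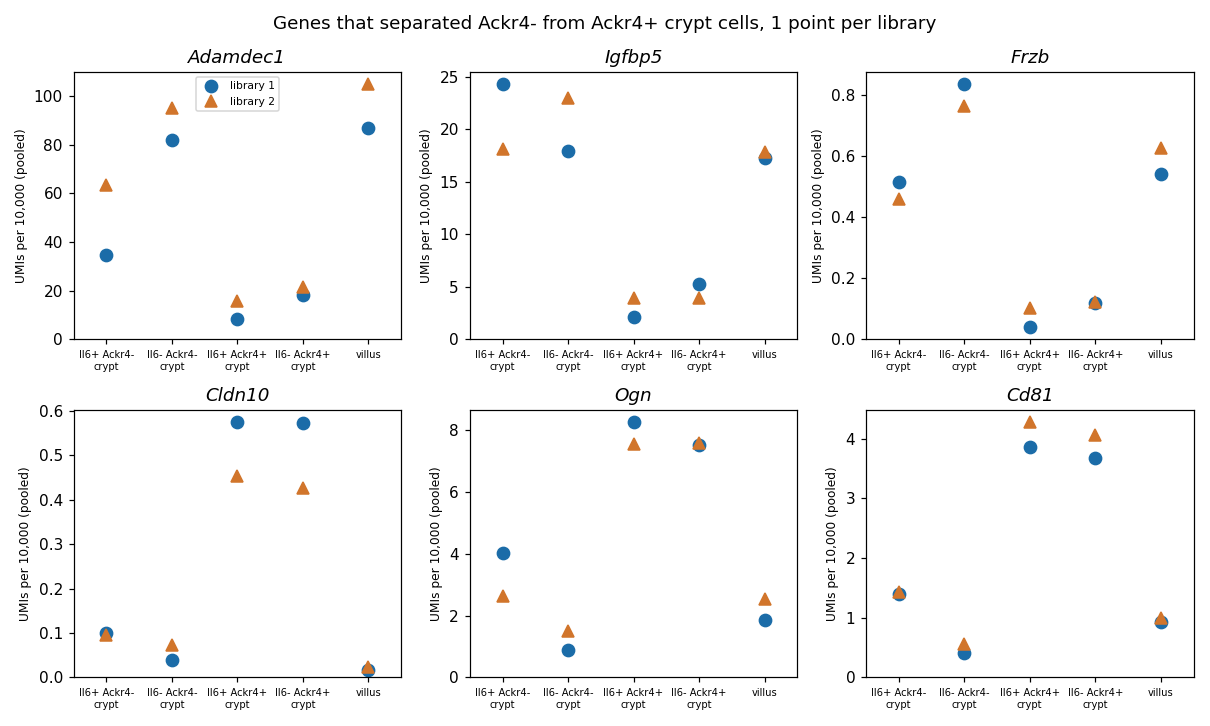
Pooled level in UMIs per 10,000 (vertical axes) of Adamdec1, Igfbp5, Frzb, Cldn10, Ogn and Cd81 in 5 cell groups (horizontal axes), 1 point for library 1 (circle) and 1 for library 2 (triangle). Adamdec1, Igfbp5 and Frzb are higher (Frzb not once cells with Lpl or Fgfr2 are left out) and Cldn10, Ogn and Cd81 lower in the Il6+Ackr4- cells than in the Il6+Ackr4+ cells of both libraries.

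The third comparison set the Il6+Ackr4- cells against the villus cells. Here 277 genes were higher and 280 lower, 39.2% of 1420 genes tested by limma (19.5% higher, 19.7% lower), and 217 and 401 with the analysed genes as the total. All 3 comparisons share the Il6+Ackr4- cells and are therefore not independent of each other. The crypt list, chosen on these samples like the villus list, was higher in 34 of 39 genes, the villus list lower in 19 of 36, and the immediate-early and NF-kB lists higher in 27 of 29 and 17 of 20. Of the 39 crypt genes, 2 entered the test through 1 of the groups only. Most villus cells had no Il6: the immediate-early sum was 295 and 254 UMIs per 10,000 in the Il6+Ackr4- cells, 261 and 246 in villus cells with Il6, and 109 and 120.5 in those without. The NF-kB sum was 57.4 and 52.9, 54.6 and 50.003, and 25.7 and 29.7. Piezo2 stood at 1.61 and 0.759 UMIs per 10,000 against 0.346 and 0.240 (log2 difference 1.64 ± 0.18 SE, limma adjusted p = 0.00024), and the neurotrophin receptor Ntrk3 at 1.18 and 0.466 against 0.296 and 0.130 (log2 difference 1.499 ± 0.16 SE, limma adjusted p = 0.00024). Both were higher in each library, and library 1 exceeded library 2 in all these groups. Mt2 was higher by 1.79, Has1 by 1.51, Nfkbiz by 1.45, Gfpt2 by 1.15, Matn4 by 1.56 and Prlr, the prolactin receptor, by 1.30.

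In the matrix list 19 of 36 were higher, 3 lower and 14 did not pass, and in the complement and acute phase list 8 of 10 were higher and 1 lower. Of these 10 complement and acute phase genes, 1 entered the test through 1 of the groups only. Mgp stood at 34.8 and 36.4 UMIs per 10,000 against 14.95 and 17.6 (log2 difference 1.13 ± 0.12 SE, limma adjusted p = 0.00023), C3 at 31.1 and 32.9 against 14.96 and 17.4 (log2 difference 0.99 ± 0.09 SE, limma adjusted p = 0.00015), and Col14a1 at 14.7 and 12.4 against 6.35 and 7.02 (log2 difference 1.00 ± 0.12 SE, limma adjusted p = 0.00031). The groups did not overlap for these genes. Lbp, the lipopolysaccharide-binding protein, was higher by 1.07, Serpina3n by 1.00 and Fbln1, a fibulin, by 0.81. Gdf6 was higher by 1.11.

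Among the lower genes, Acta2 and Tagln, smooth muscle genes that the subepithelial list also holds, fell by 1.99 and 2.18 on the log2 scale. The paper used αSMA, the protein of Acta2, to mark smooth muscle cells of the villus. Of the 9 subepithelial markers tested, 5 were found in under 5% of the Il6+Ackr4- cells and entered the test through the villus cells only, so they had to differ. The same holds for Wnt4, Agt, Gdf10, Mmp10, Myh11 and Igkc, and on the higher side for Gdf6, Matn4 and Prlr, which entered through the Il6+Ackr4- cells. The levels of these 9 genes are a description. Wnt4 stood at 0.0333 and 0.130 UMIs per 10,000 against 0.830 and 0.914. Agt, angiotensinogen, stood at 0.0499 and 0.0598 against 1.11 and 0.649, and Gdf10 at 0.0832 and 0.0438 against 0.631 and 0.535. Myh11, the smooth muscle myosin, and Mmp10 differed by -2.45 and -2.37. Fibin and the chemokine Cxcl14 were lower by 2.33 and 1.88. The rule limits mesothelial-like and Fibin panel genes in the Il6+Ackr4- cells and not in the villus cells, so lower values of these cells' markers, Fibin and Gdf10 among them, are partly set by the choice of cells. Of the other markers of these types, 5 of 7 Fibin fibroblast and 4 of 5 mesothelial-like genes tested were lower, of which 1 and 3 of those tested entered through the villus cells only. The smooth muscle list summed to 2.05 and 1.84 UMIs per 10,000 in the villus cells and 0.316 and 0.578 in the Il6+Ackr4- cells, the subepithelial list to 13.6 and 14.9 against 5.09 and 7.33, and the part of these cells in the result was not tested. Adamdec1 and Igfbp3 were lower by 1.03 and 1.48. Igkc was lower too, but in the villus cells 53.7% and 81.8% of its UMIs came from 1 cell per library.

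In the 195 Il6+Ackr4- cells without Lpl or Fgfr2, the genes that define the villus cells, a larger difference is set by the choice of cells and the values are a description. Mt2 was higher by 2.98 (limma adjusted p = 1.3e-05), Piezo2 by 2.55 (limma adjusted p = 2.5e-05), Gfpt2 by 2.002 (limma adjusted p = 4.4e-05) and Has1 by 2.11 (limma adjusted p = 0.0011), while Adamdec1 was lower by 3.32; 587 genes passed. In cells of both groups with an immediate-early sum of at least 200 the count was 154, and Piezo2 (2.01, limma adjusted p = 0.00015), Mgp (1.14, limma adjusted p = 0.00015), Mt2 (1.20, limma adjusted p = 0.0008) and Gfpt2 (0.78, limma adjusted p = 0.0025) remained past the threshold, while Has1 (0.69, limma adjusted p = 0.064) did not.

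**Figure D5:**
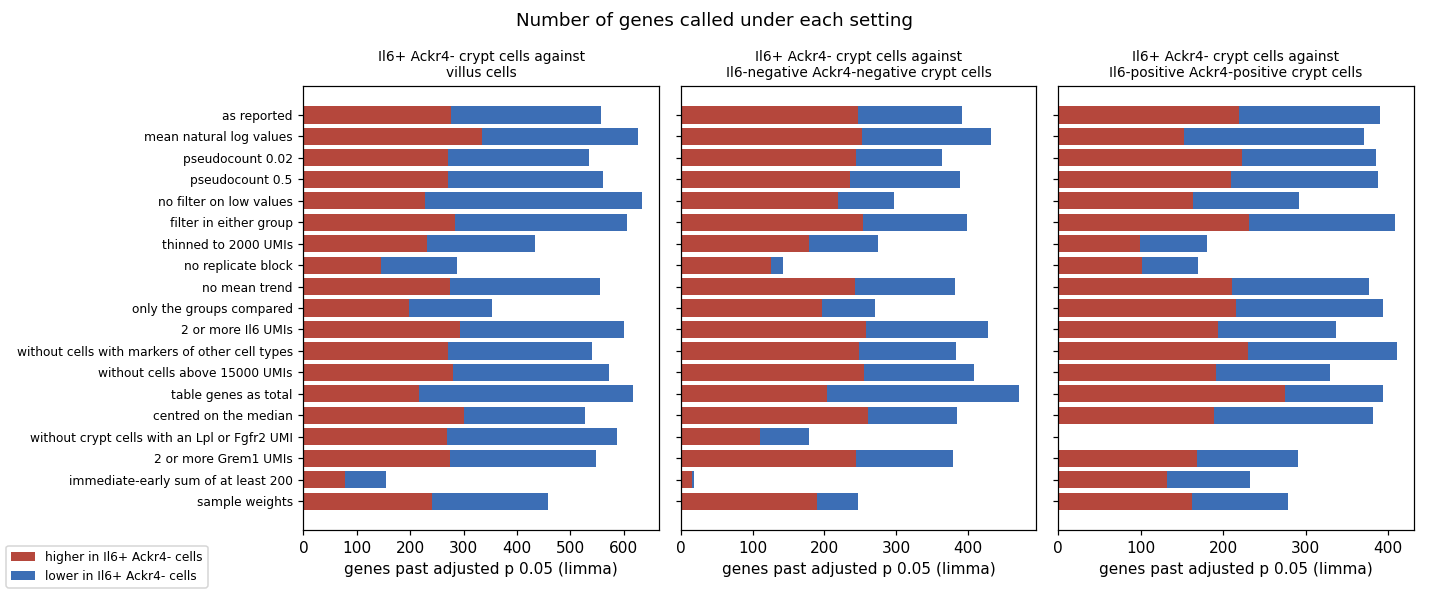
Number of genes past an adjusted p of 0.05 in limma (horizontal axes) for the 3 comparisons under each setting (vertical axis), split into genes higher (red) and lower (blue) in the Il6+Ackr4- cells. Leaving out crypt cells with Lpl or Fgfr2 brings the comparison with the Il6+Ackr4+ cells to 0 genes, and an immediate-early sum of at least 200 brings the comparison with the Il6-Ackr4- cells to 19.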

How the data were processed

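The study profiled sorted stromal cells of the mouse small intestine with 10X Genomics 3′ sequencing (2 libraries) and 2 Smartseq2 plates, whose 739 columns were not used here. Per the submitters' processing notes, Cell Ranger 3.1.0, the GRCm38 (mm10) genome and Seurat were used. The deposited values are natural log of 1 + UMIs per 10,000 of a cell, computed by the authors, for 3891 genes. UMIs were recovered from them and 100% of values came out whole within 0.01, with 5,017,644 UMIs in the Il6+Ackr4- cells of library 2 and 600,687 in those of library 1. One row was cut short and left out. UMIs were summed per library and cell group and tested as log2(UMIs per 10,000 + 0.1) with limma 3.58.1 in R 4.3.3 (mean trend, library as block because every group came from both libraries, Benjamini-Hochberg adjusted p under 0.05). The first fit held 10 sums of 5 groups and 4 residual degrees of freedom, and the interaction 8 sums of 4 groups and 3. Genes found in at least 5% of cells on average entered, without the 18 rule genes. The test was run on simulated counts with 200 changed genes: at a log2 change of 1 it recovered 87%, 85.5% and 83.5% in the comparisons with villus, Il6-Ackr4- and Il6+Ackr4+ cells, and 8.42%, 11.4% and 10.2% of its calls were false. With sample weights it recovered 82%, 79% and 79.5%, with 4.65%, 5.95% and 6.47% false. The simulated counts had Poisson counting error and the same assumed noise for every gene, with changes in the Il6+Ackr4- sums only. Spread from cell to cell was not simulated, so these rates may not hold for the real sums. No doublet caller was run. Settings left out cells with markers of other cell types or above 15,000 UMIs, but these do not single out doublets of a crypt and a villus fibroblast. The libraries shared 7 barcodes, none of them in the Il6+Ackr4- cells. Named genes were the rule genes, Has1, Mt2, Gfpt2, members of the lists, and the 10 genes per direction of largest difference in each comparison. The members and lists were chosen with earlier results of these data known. Some list members are not reported here by name.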

Additional observations from a re-analysis of the deposited data

Results flagged for a closer look

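The difference that goes with Il6 had opposite signs in crypt and villus cells in both libraries for Piezo2 and Gdf10. Piezo2, a mechanically gated channel, was higher with Il6 in Ackr4- crypt cells by 1.38 and 0.55 on the log2 scale in libraries 1 and 2 and differed by -0.40 and -0.11 in villus cells, an interaction of 1.22 ± 0.29 (SE) with a limma adjusted p of 0.25. Gdf10, a ligand of the BMP family, differed by 0.45 and 0.15 in crypt and -0.48 and -0.21 in villus cells, an interaction of 0.65 ± 0.21 (SE) with a limma adjusted p of 0.41. Neither interaction passed the threshold. Jam2 and Emid1, given above with the smallest interaction p-values of limma, also had opposite signs in the mean over the libraries.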

How the results depend on the processing

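Counts of genes past the threshold are given in the order villus, Il6-Ackr4- and Il6+Ackr4+ comparison, with 557, 391 and 390 as reported. Without the replicate block they were 288, 142 and 170, and 0 for the interaction. A fit of the compared groups alone gave 354 for villus cells, sample weights gave 458, 246 and 279, and thinning gave 180 for Il6+Ackr4+ cells. Among cells with an immediate-early sum of at least 200 the counts were 154, 19 and 233, and without crypt cells with Lpl or Fgfr2 they were 178 for Il6-Ackr4- and 0 for Il6+Ackr4+ cells. The cause of these changes was not tested. These last 2 gates, 2 or more Grem1 UMIs and sample weights were chosen after seeing the data. With the analysed genes as the total, the median over all genes moved to -0.20, -0.18 and 0.13. The interaction, with 0 genes as reported, gave 10 on mean natural log values, 4 with a pseudocount of 0.5 (Cd81, Emid1, Sertm1 and Wnt4), 5 with 2 or more Il6 UMIs (those and Jam2), and 1, Cd81, both without cells with other markers and without cells above 15,000 UMIs.

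Of 2034 tested values of named genes under alternatives, 1862 kept direction and side of the threshold, 150 no longer passed, 5 newly passed and 17 changed sign. At an immediate-early sum of at least 200 the Il6-Ackr4- comparison gave -0.017 for Egr1, -0.27 for Hspa1a, -0.040 for Hspa1b, -0.030 for Uap1, -0.061 for Ftl1, -0.19 for Relb and 0.15 for Vcam1. In the same comparison Relb was -0.36 after thinning and -0.065 without Lpl or Fgfr2 cells, where Vcam1 was 0.21. Without Lpl or Fgfr2 cells the Il6+Ackr4+ comparison gave -0.073 for Frzb, -0.027 for Hhip, 0.64 for Mt2, 0.23 for Gfpt2 and 0.039 for Mt1. For Has1 it gave -0.089 after thinning, -0.011 without cells above 15,000 UMIs and values from -0.24 without library 2 to 0.32 without library 1. Leaving out a library left values with no test, since no residual degrees of freedom remained, and 223 of 226 such values kept their direction. The exceptions in the Il6-Ackr4- comparison were Has2 (-0.24 to 0.12) and Vcam1 (-0.39 to 0.12).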
